A study of Bos taurus with 15 samples.

Results

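Transforming growth factor beta (TGF-beta) signalling was followed through 9 genes in bovine endometrial cells cultured with or without early embryos. The genes were the ligands TGFB1, TGFB2 and TGFB3, the receptors TGFBR1 and TGFBR2, the intracellular mediators SMAD3 and SMAD7, the matrix protein gene THBS1, and INHBA, which encodes a subunit of activin. They were chosen by name from the pathway, and all 9 were found among the 19994 genes of the deposited table and passed the filter on low values. TGF-beta is secreted in a latent complex held in the extracellular matrix, and once released it binds TGFBR2, which recruits and activates TGFBR1. The active receptor phosphorylates SMAD2 and SMAD3, which enter the nucleus with SMAD4 and switch on genes of matrix, cytoskeleton and growth arrest. In the uterus the pathway is known for its part in tissue remodelling around implantation.

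Poly(A) RNA was sequenced from 15 libraries in 3 groups of 5. The cells were scraped from the uterine lining of beef cows after death, pooled over 4 uteri, frozen and used at passage 3, untreated and at 90% confluence. Control cells had no embryos, cells of the no contact group (labelled Contact⎼) shared the well with day 5.5 morulae held in a transwell, and cells of the contact group (Contact+) had the morulae lying on them. Morulae were produced in vitro and added in groups of 15 ± 1. All groups received transwells and spent 48 h in synthetic oviductal fluid with 5% fetal bovine serum. Because all cultures came from one pooled stock of cells, every p-value measures the spread between cultures and not between cows. The labels give 6 replicate experiments with 2 to 4 wells per treatment, without saying which experiment a library belongs to. Libraries of the same group may share an experiment, and the tests treat them as independent. Libraries are named below by the number in their title, in the order control BEEC.24, BEEC.83, BEEC.84, BEEC.103 and BEEC.104 (control titles hold only this prefix), no contact 30, 89, 90, 109 and 110, and contact 28, 87, 97, 107 and 108.

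Between 4195091 and 19792557 reads were assigned to genes per library, and the 2 shallowest were contact libraries 97 and 108. No contact library 90 stood apart on the second principal component, which carried 12.92% of the variance. The labelled cell type was only partly matched by its markers. The keratin gene KRT8 lay between 29337 and 40317 normalized counts and the epithelial cadherin CDH1 between 952 and 1698. The epithelial adhesion gene EPCAM, however, was at 0 in 8 of 15 libraries and never above 3.36, and the listed marker CLDN4 lay between 0 and 4.47. The keratin genes KRT18 (5239 to 10558) and KRT19 (10129 to 17682) were present in every library. Of 11 epithelial markers, among them KRT5, which was at 0 in 14 of 15 libraries, 8 had a median of 10 or more normalized counts. The fibroblast genes COL1A1 (82259 to 116621) and DCN (31731 to 44862) were present in every library, while THY1 (0 to 8.95) and DES (0 to 14.2) were low. Of 12 fibroblast markers, 10 had a median of 10 or more. Of 10 embryo markers in the table, NANOG, PAG2, PAG11 and SOX17 were at 0 in every library, while GATA6 (2456 to 3112), IFNT (18.8 to 89.3) and TFAP2C (10.4 to 35.0) were above 0 in every library, controls included. Summed marker lists were compared by exact permutation tests, with a lowest Benjamini-Hochberg adjusted p of 0.5 over 21 tests. With 5 libraries per group these tests could hardly pass after adjustment, so no conclusion is drawn from them. Before adjustment the lowest exact permutation p of a marker sum was 0.0635, for endothelium and muscle between contact and control. The embryo sum, 3002 in control and 2761.5 in contact on average, was mostly GATA6, with means of 2932.5 and 2691.

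None of the 9 genes passed the test in any comparison. The question was whether embryos, lying on the cells or kept apart from them, change the transcripts of the pathway. In limma, with Benjamini-Hochberg adjustment over 12559 tested genes and a threshold of 0.05, 0 of 9 were called for contact against control, where 13.0% of all tested genes were called. For no contact against control 0 of 9 were called against a background of 1.59%, and for contact against no contact 0 of 9 against 5.56%. At an unadjusted p under 0.05 the counts were 2, 1 and 0 of 9, beside 26.3%, 8.39% and 19.7% of all tested genes. Groups without overlap were found for 0, 1 and 0 of 9, beside 13.6%, 2.95% and 5.44%. The median log2 differences of the 9 genes were -0.10, -0.05 and -0.01 in the 3 comparisons, where those of all tested genes were -0.01, -0.01 and 0.01. A gene that fails the test is not shown to be equal between groups, so the 95% confidence interval of each difference is given. The comparisons share groups, so their values are not independent of each other.

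**Figure D1:**
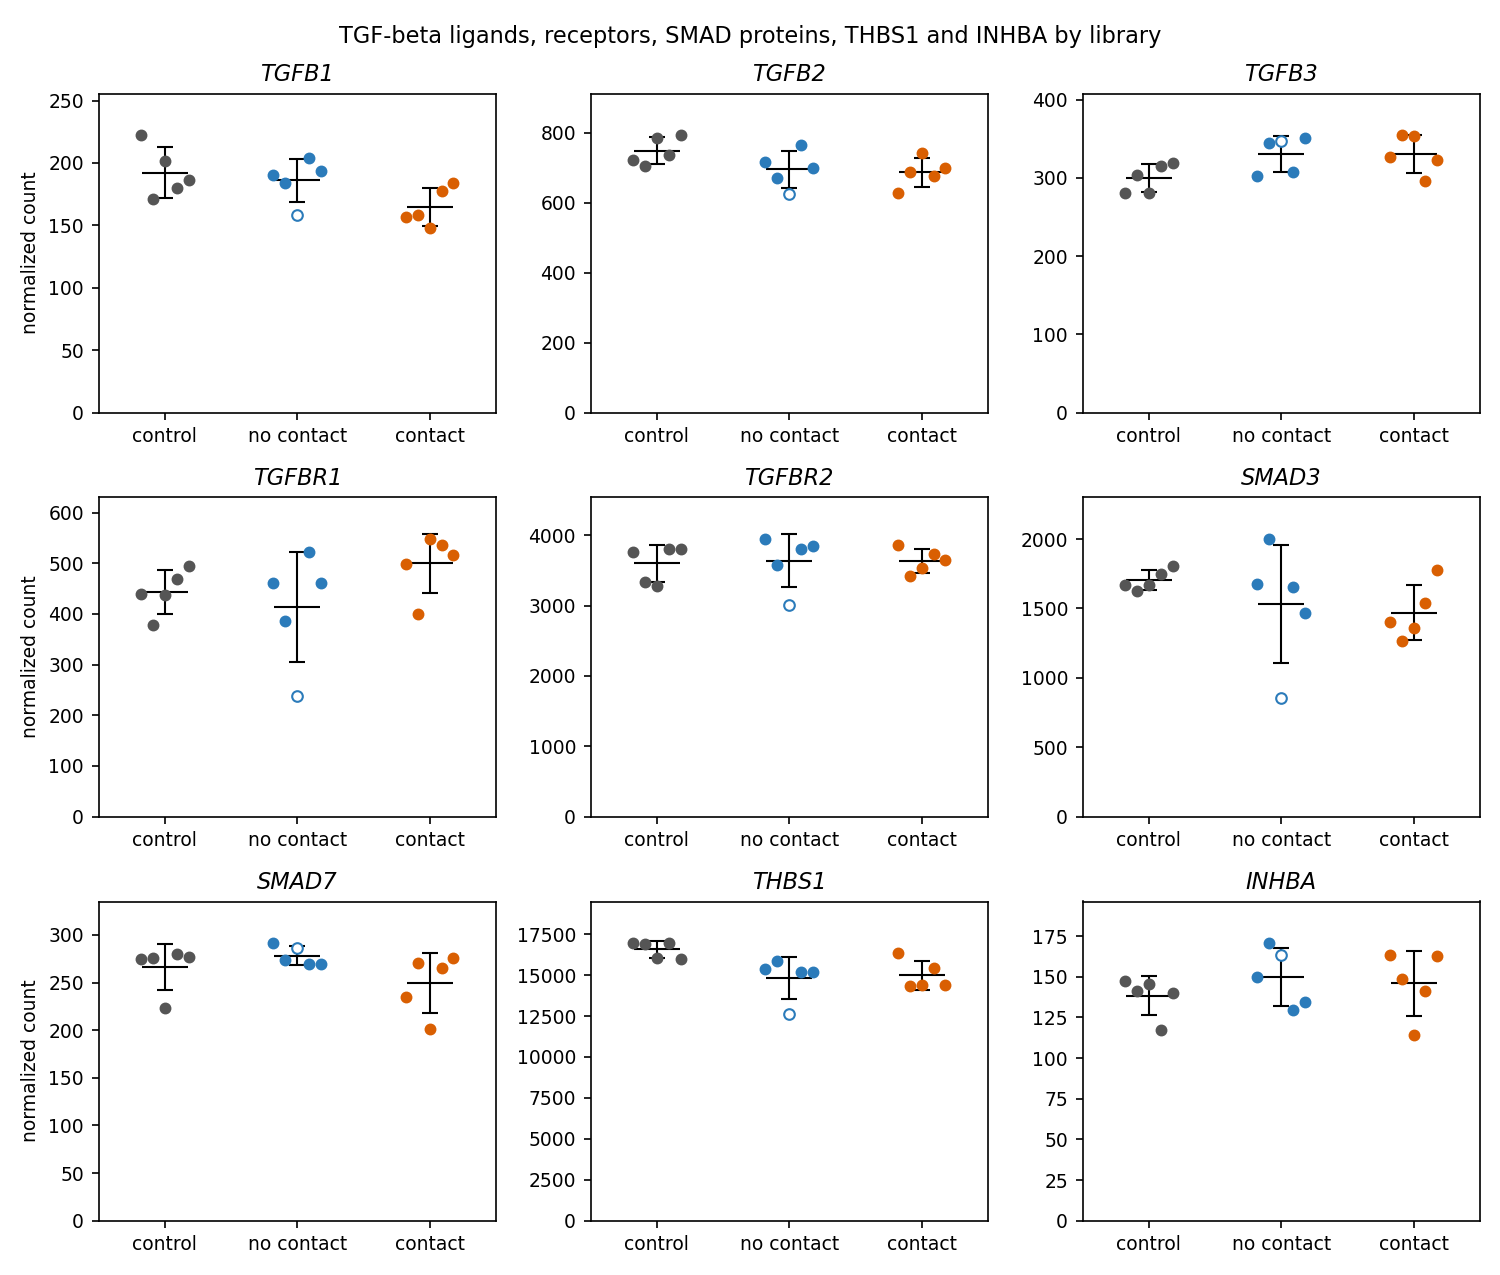
Normalized count (vertical axes, linear and starting at 0) of the 9 genes in each library of the control, no contact and contact groups. Points are libraries, ordered within a group by library number, horizontal bars with whiskers are the mean ± SD of 5 libraries, and the open point is no contact library 90. The groups overlapped for every gene except THBS1, where the 5 no contact libraries lay below the 5 control libraries, and library 90 was far below its group for TGFBR1 and SMAD3.

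The ligands are given first. TGFB1, the most widely expressed isoform, had normalized counts of 222, 171, 202, 180.1 and 186 in the control libraries. It had 191, 184, 158, 204 and 194 in no contact and 157, 158, 148, 178 and 184 in contact. In contact 3 of 5 libraries were below every control library, while libraries 107 and 108 lay within the control range. The group means were 192 ± 20.1, 186 ± 17.3 and 165 ± 15.3 (SD, n = 5 each). The log2 difference of contact from control was -0.22 (95% interval -0.42 to -0.01), with a limma adjusted p of 0.158. The numbers in the titles fall into runs, which the labels do not explain, and inside each run it was -0.50 in libraries 24 to 30, -0.23 in 83 to 90 and -0.02 in BEEC.103 to 110; contact 97 is alone in its run. The first run has 1 library per group and the second 1 contact library. Contact differed from no contact by -0.17 (-0.38 to 0.03, limma adjusted p = 0.338), and no contact from control by -0.05 (-0.25 to 0.16). In bulk RNA, fewer cells of a type and less RNA per cell cannot be told apart, and this holds for every value below.

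TGFB2, the isoform whose binding to TGFBR2 relies on the co-receptor TGFBR3, stood at 723, 705, 786, 737 and 793 normalized counts in control. The no contact libraries had 715, 672, 624, 765 and 699 and the contact libraries 628, 689, 743, 677 and 700.5. The groups overlapped, but 4 of 5 contact libraries and 3 of 5 no contact libraries lay below the lowest control library. The means were 749 ± 38.8, 695 ± 52.3 and 687 ± 41.5. The log2 difference from control was -0.12 in contact (-0.26 to 0.02, limma adjusted p = 0.252) and -0.11 in no contact (-0.25 to 0.03, limma adjusted p = 0.711). Contact and no contact differed by -0.01 (-0.16 to 0.13).

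TGFB3, the third isoform, took values of 281, 303, 280.5, 316 and 319 in control. In no contact it took 303, 345, 347, 308 and 351, and in contact 327, 355, 353, 296 and 323. Its means were higher with embryos than without, 331 ± 23.2 in no contact and 331 ± 24.2 in contact against 299.8 ± 18.4, but both groups overlapped the control libraries. The log2 difference from control was 0.14 in contact (-0.02 to 0.30, limma adjusted p = 0.262) and 0.14 in no contact (-0.02 to 0.30, limma adjusted p = 0.664). Inside each numbering run, the contact difference was 0.22, 0.28 and -0.04.

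The receptors showed a steady TGFBR2 and a scattered TGFBR1. TGFBR2, the ligand-binding receptor kinase, had 3761, 3342, 3286, 3806 and 3808 normalized counts in control. The no contact libraries had 3946, 3581, 3005, 3812 and 3842, and the contact libraries 3857, 3426, 3529, 3732 and 3649. The 3 groups overlapped widely, with means of 3601 ± 263, 3637 ± 378 and 3638 ± 169. The log2 difference from control was 0.02 in contact (-0.14 to 0.17) and 0.01 in no contact (-0.14 to 0.17). These intervals hold the ratio of contact to control between 0.909 and 1.13.

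TGFBR1, the kinase that phosphorylates the SMAD proteins, had 439, 378, 437, 469.7 and 494 in control and 498, 400.4, 548, 537 and 516 in contact. The no contact libraries had 462, 387, 239, 522 and 461, with library 90 far below the other 4. In contact 4 of 5 libraries were above every control library, and library 87 lay within the control range. The means were 444 ± 43.7, 414 ± 109 and 499.9 ± 58.8 in control, no contact and contact. Contact differed from control by 0.17 (-0.16 to 0.50, limma adjusted p = 0.544) and from no contact by 0.31 (-0.02 to 0.64, limma adjusted p = 0.287). Library 90 set the second of these values, which was 0.13 without it, and the difference of no contact from control was -0.14 with it and 0.04 without it.

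**Figure D2:**
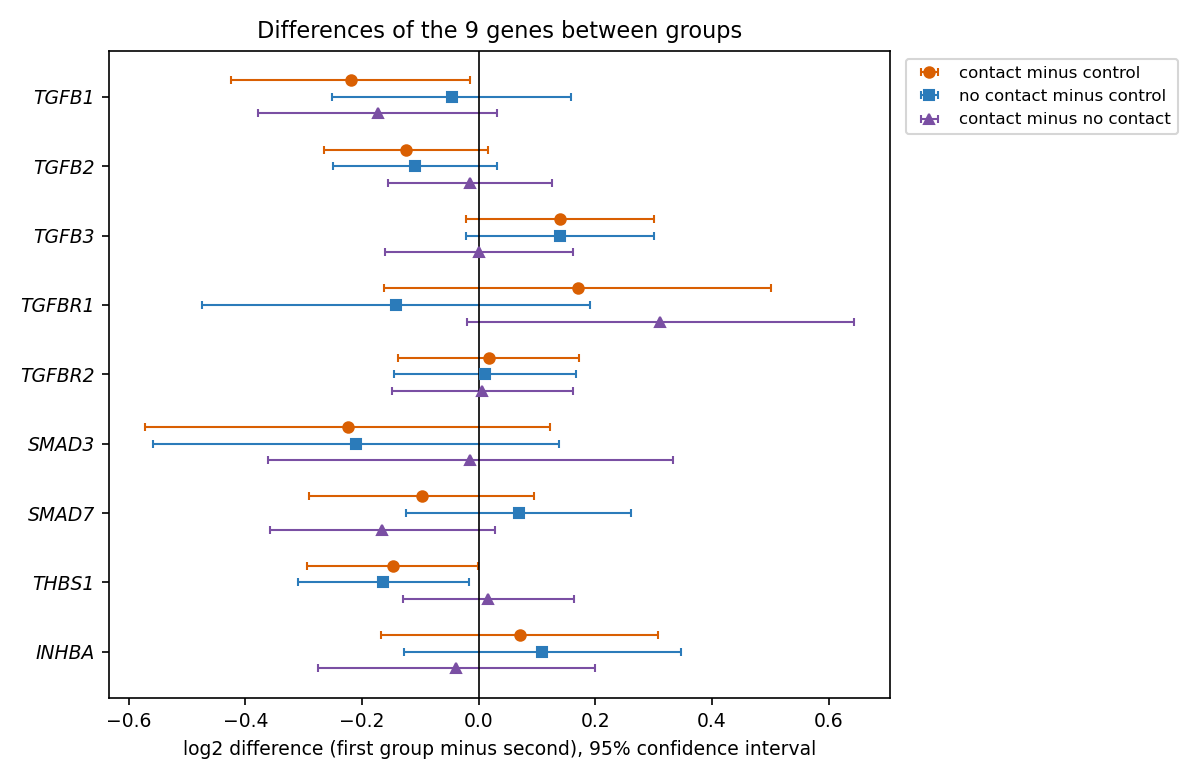
Log2 difference between groups (horizontal axis) for the 9 genes, with 95% confidence intervals from limma over 15 libraries. Circles are contact minus control, squares no contact minus control and triangles contact minus no contact. Before adjustment, the intervals of TGFB1 for contact against control and of THBS1 for both embryo groups against control lie below 0, those of SMAD3 and TGFBR1 are the widest, and none of the differences passed the adjusted threshold.

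SMAD3, which carries the receptor signal to the nucleus, was tight in control and wide in both embryo groups. The control libraries had 1671, 1629, 1673, 1751 and 1808 normalized counts. The no contact libraries had 1673, 1999.8, 854, 1655 and 1471, and the contact libraries 1401, 1266, 1361, 1539 and 1781. In contact 4 of 5 libraries were below every control library and library 108 lay within the control range, whereas no contact library 90 was the lowest of all and library 89 the highest. The means were 1706 ± 71.8, 1530.4 ± 423 and 1469.5 ± 199.7. The log2 difference of contact from control was -0.22 (-0.57 to 0.12, limma adjusted p = 0.424). In a fit of the control and contact libraries alone, in which the spread of the no contact group plays no part, the same difference of -0.22 passed with an limma adjusted p of 0.0414, where 8.33% of all tested genes were called lower. Without library 90 the adjusted p over all groups was 0.0676. The difference of no contact from control was -0.21 with library 90 and -0.01 without it, and that of contact from no contact was -0.01 and -0.21.

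SMAD7, an inhibitory SMAD that TGF-beta itself induces and that blocks the receptor, had 275, 276, 223, 280.3 and 276 normalized counts in control. It had 291, 274, 286, 270.0 and 269.9 in no contact and 235, 271, 202, 265 and 276 in contact. Control library BEEC.84 and contact libraries 28 and 97 were low, and the groups overlapped. The means were 266 ± 24.2, 278 ± 9.92 and 249.6 ± 31.2. Contact differed from control by -0.10 (-0.29 to 0.10), no contact from control by 0.07 (-0.12 to 0.26) and contact from no contact by -0.17 (-0.36 to 0.03, limma adjusted p = 0.331).

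THBS1 was the member with separated groups. It encodes thrombospondin 1, a matrix glycoprotein that can release TGF-beta from its latent complex. Its normalized counts were 16954, 16921, 16023, 16949.7 and 16007 in control and 15344, 15874, 12626, 15188 and 15168 in no contact. In contact they were 16346, 14366, 14386, 15406 and 14396. Every no contact library was below every control library, a pattern found in the lower direction for 0.971% of all tested genes, and in contact 4 of 5 libraries were below every control library. The means were 16571 ± 508, 14840.0 ± 1270.3 and 14980.0 ± 883. The log2 difference from control was -0.16 in no contact (-0.31 to -0.02, limma adjusted p = 0.529) and -0.15 in contact (-0.29 to -0.00, limma adjusted p = 0.188). Without library 90 the no contact difference was -0.11. Inside each numbering run it was -0.14, -0.22 and -0.12 in no contact and -0.05, -0.20 and -0.15 in contact.

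INHBA, whose product pairs with itself to form activin A or with the inhibin alpha subunit to form inhibin A, had 147, 141, 145, 117 and 140.0 normalized counts in control. It had 150.2, 171, 163, 129 and 135 in no contact and 163, 149, 114, 141 and 163 in contact. The ranges overlapped throughout, with means of 138 ± 12, 149.6 ± 17.8 and 146 ± 20.1. The contact value of library 97 rests on 34 reads, the fewest behind any value of the 9 genes. The log2 difference from control was 0.07 in contact (-0.17 to 0.31) and 0.11 in no contact (-0.13 to 0.35).

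The spread within groups differed between the 9 genes. SMAD3 and TGFBR1 had residual standard deviations of 0.29 on the log2 scale, at the 85.3th and 84.8th percentile of all tested genes, while TGFB2 and THBS1 had 0.09, at the 9.95th and 10.7th percentile. The median over all tested genes was 0.16. Library 90 held the lowest value of its group for 6 of 9 genes, where it was lowest for 29.9% of all tested genes. In the authors' deposited table none of the 9 genes had an FDR under 0.05 in any comparison, and the lowest FDR there was 0.126, for THBS1 between control and contact.

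**Figure D3:**
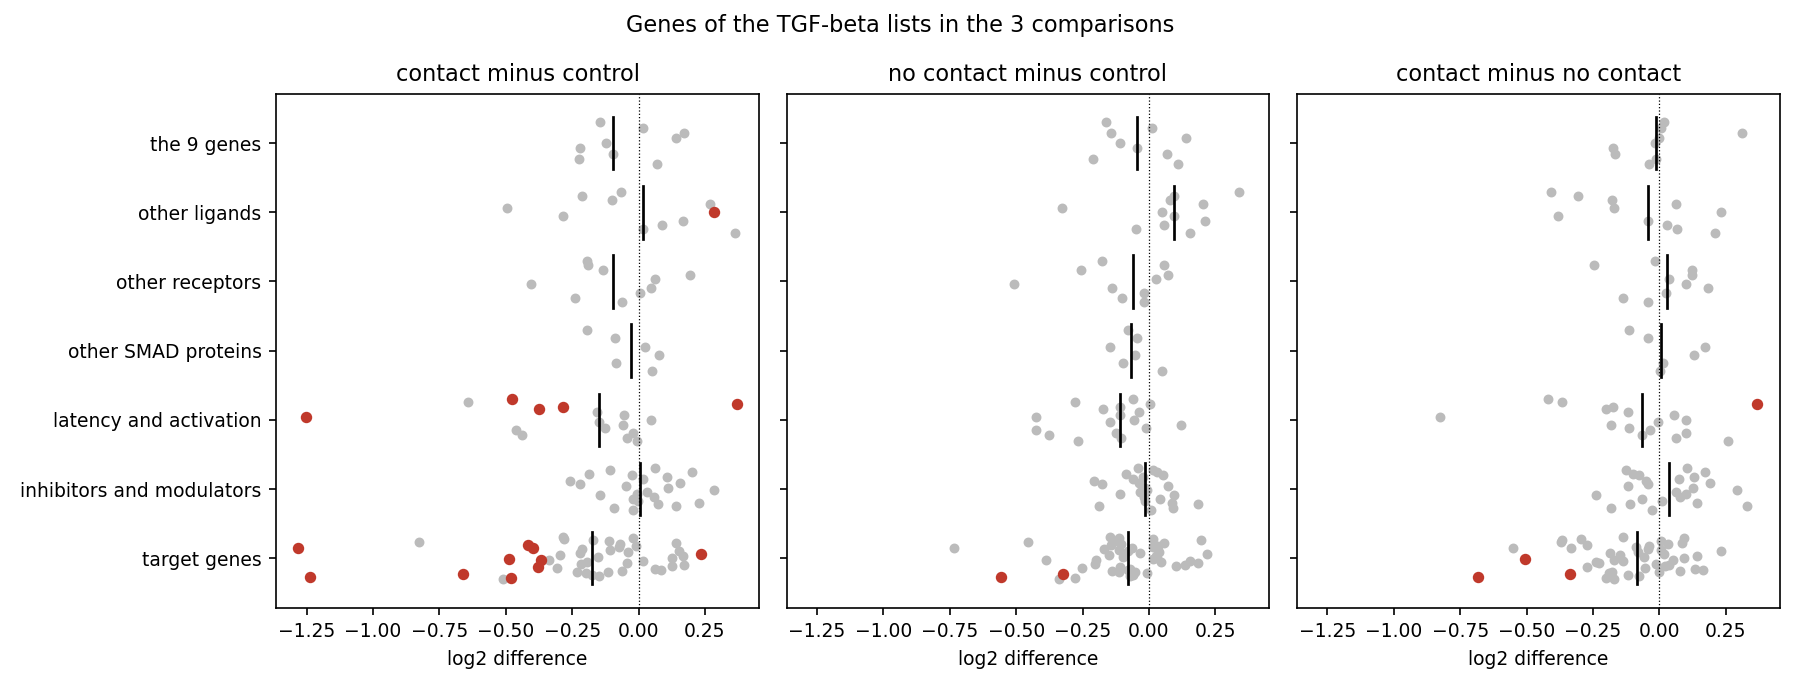
Log2 difference (horizontal axes) of every tested gene in 7 lists of the TGF-beta pathway, with 1 panel per comparison. Each point is a gene, red where the limma adjusted p is under 0.05 and grey otherwise, the black bar is the list's median, and the vertical position within a list is only for display. Red points lie mainly among the target genes and the latency and activation genes, with 9 and 4 lower in contact than in control.

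Beyond the 9 genes, few of the other listed ligands, receptors, SMAD genes or inhibitors passed the test. Of 11 tested genes listed as further ligands, among them BMP1, which encodes a procollagen-processing metalloproteinase and not a ligand, 1 rose in contact against control, where 7.17% of all tested genes were called higher. It was BMP7, a bone morphogenetic protein, with 1201 ± 131 normalized counts in control and 1458 ± 123 in contact, a log2 difference of 0.28 (limma adjusted p = 0.0222). That call was lost without control library BEEC.83 or BEEC.84 or contact library 87 or 108, where the adjusted p lay between 0.0513 and 0.0776. Of 10 further receptors, 6 further SMAD genes and 24 inhibitors and modulators, 0 were called in any of the 3 comparisons. The shares of all tested genes called were 13.0% for contact against control, 1.59% for no contact against control and 5.56% for contact against no contact. At an unadjusted limma p under 0.05 the counts for contact against control were 0, 0 and 5, beside 26.3% of all tested genes. With the numbering run as a block SMAD9, a mediator of bone morphogenetic protein signals, passed for contact against control (-0.25, limma adjusted p = 0.039, against 0.466 without the block). Under that block 963 of 12559 tested genes were called lower in contact than in control, against 726 without it. Among the inhibitors, the SMAD co-repressor gene SKI had 1377 ± 70.9 normalized counts in control and 1181 ± 43.9 in contact without overlap, with an limma adjusted p of 0.0584. It passed in 3 alternative analyses, among them DESeq2, and without no contact library 89 or 90, where the adjusted p was 0.0473 and 0.00981.

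A minority of the genes listed for latency and activation of TGF-beta passed the test with contact. Of 17 tested, 4 fell and 1 rose in contact against control and 12 did not pass, beside 5.78% and 7.17% of all tested genes, and the list's median log2 difference was -0.15. In no contact against control 0 of 17 were called at the adjusted threshold and 2 at an unadjusted limma p under 0.05, beside 1.59% and 8.39% of all tested genes. LTBP2, a matrix protein of the latent TGF-beta binding family that is not itself known to bind latent TGF-beta, had 109656, 109164, 114417, 60458 and 55594 normalized counts in control. It had 73855, 100743, 66419.7, 44056 and 48606 in no contact and 35931, 33526, 39919, 34457 and 36391 in contact. Every contact library was below every other library, and within control and no contact the libraries numbered BEEC.103 to 110 were the low ones. LTBP2 fell by 1.25 on the log2 scale between control and contact (limma adjusted p = 0.00196), and inside each numbering run the difference was -1.61, -1.74 and -0.71. Against no contact the difference was -0.83 with an limma adjusted p of 0.0518, which passed in 7 of 12 other analyses, edgeR and DESeq2 among them. It also passed without control BEEC.84, BEEC.103 or BEEC.104 or no contact 109 or 110, with adjusted p between 0.0242 and 0.0475.

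PLAT was the gene of this list that rose. It encodes tissue plasminogen activator, whose product plasmin can free latent TGF-beta. It had 1674, 1553, 1505, 1643 and 1600.0 normalized counts in control, 1621, 1547, 1627, 1597 and 1597 in no contact and 2334, 2041, 1973, 1952 and 2028 in contact. All 5 contact libraries were above all other libraries. The log2 difference of contact was 0.37 from control (limma adjusted p = 0.000145) and 0.37 from no contact (limma adjusted p = 0.000396), whereas no contact differed from control by 0.00 (-0.12 to 0.13).

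The other members that fell with contact were smaller changes. THBS2, encoding the thrombospondin that lacks the activating sequence of THBS1, fell from 296 ± 18.8 to 215 ± 38.8 normalized counts, by 0.48 on the log2 scale (limma adjusted p = 0.0201). MMP14, a membrane-bound matrix metalloproteinase, fell from 2688 ± 379 to 2064 ± 193, by 0.37 (limma adjusted p = 0.0305), and MMP2, the gelatinase it activates, from 12073 ± 1183 to 9900.0 ± 821, by 0.29 (limma adjusted p = 0.0406). Calls of these 3 genes were lost in 3, 6 and 7 of 15 fits that left out 1 library, with adjusted p between 0.0502 and 0.128. The libraries concerned were control BEEC.24 and contact 87 and 97 for all 3 genes, with control BEEC.83 and contact 107 for both metalloproteinases, control BEEC.84 for MMP14 and control BEEC.103 and BEEC.104 for MMP2. Without both shallow contact libraries 97 and 108, 1 of the 4 falls remained past the threshold, that of LTBP2. Among all genes 420 of 12517 tested were then called lower in contact than in control, against 726 of 12559 with all libraries.

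In the list of TGF-beta target genes, more genes were called lower than higher. The list was drawn up from knowledge of other tissues, with earlier results of these data known, so its direction is a description. It holds repressed genes such as MYC beside induced ones. SMAD7, which TGF-beta also induces, is counted with the 9 genes, and PMEPA1, a feedback inhibitor, with the inhibitors. The direction is that of this list as drawn. Of 46 tested genes, 9 fell and 1 rose in contact against control, beside 5.78% and 7.17% of all tested genes. In no contact against control 2 fell and 0 rose, beside 0.111% and 1.48% of all tested genes, and in contact against no contact 3 fell and 0 rose, beside 1.82% and 3.73%. The list's median log2 differences were -0.17, -0.08 and -0.08. Without contact libraries 97 and 108, 5 target genes were called lower and 0 higher in contact than in control. Among all genes 420 of 12517 tested were then called lower and 619 higher, against 726 and 901 of 12559 with all libraries. The target gene calls lost without libraries 97 and 108 were those of COL7A1, ADAM12, SNAI1, TAGLN and MYC.

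**Figure D4:**
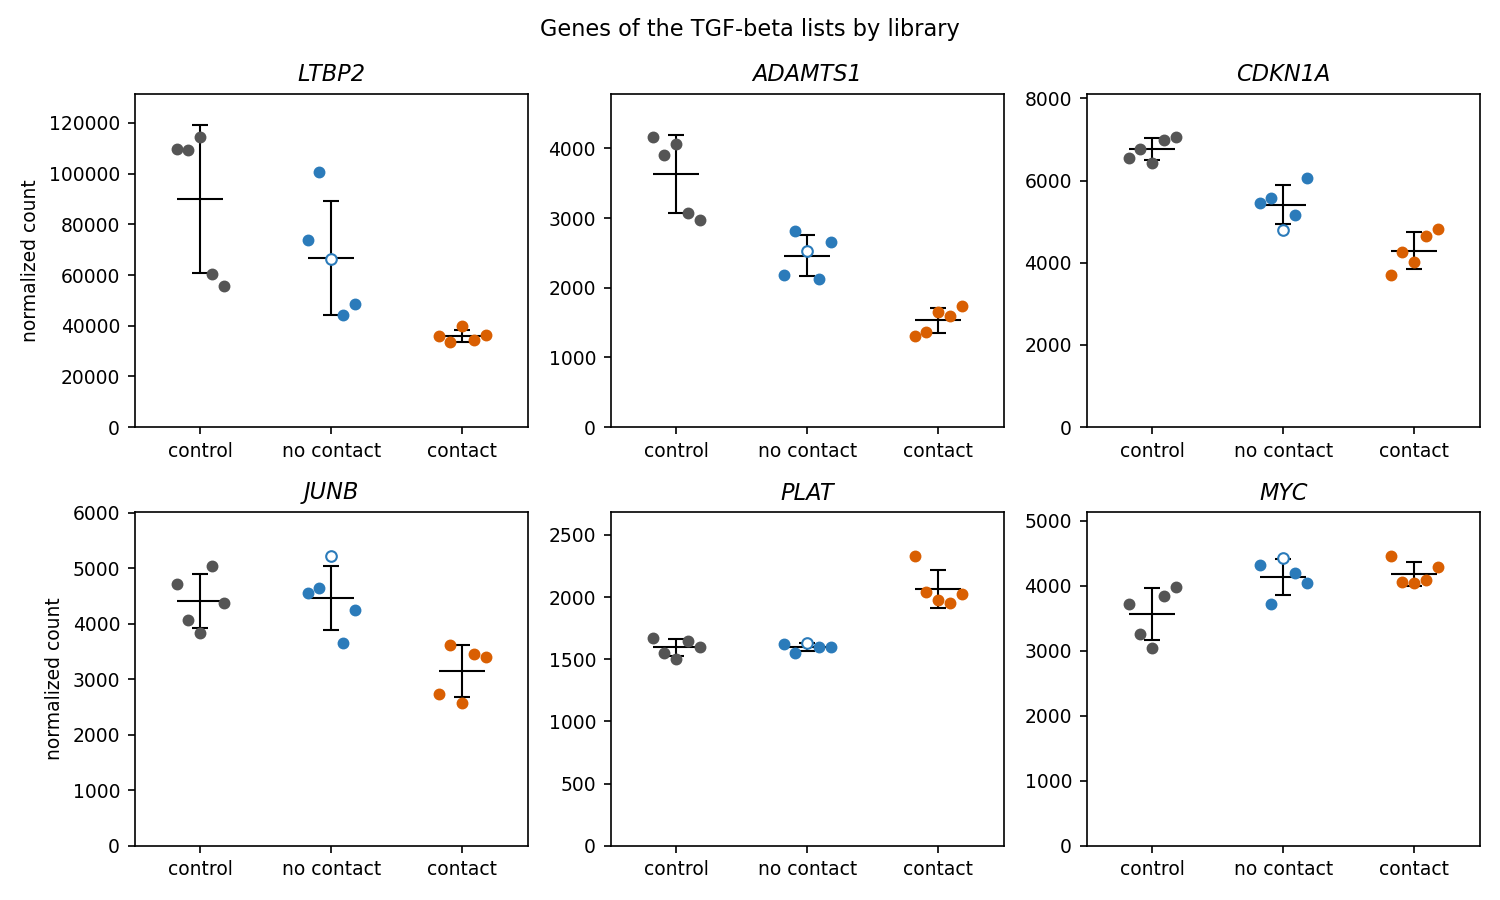
Normalized count (vertical axes, linear and starting at 0) of LTBP2, ADAMTS1, CDKN1A, JUNB, PLAT and MYC in each library of the control, no contact and contact groups. Points are libraries in order of their number, bars with whiskers the mean ± SD of 5 libraries, and the open point no contact library 90. In LTBP2 and ADAMTS1 the control libraries split into 3 high ones (BEEC.24, BEEC.83 and BEEC.84) and 2 low ones (BEEC.103 and BEEC.104), and the contact libraries lie below all others. PLAT is the gene whose contact libraries lie above all others.

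ADAMTS1, a secreted metalloproteinase, was called lower in all 3 comparisons. It had 4164, 3901, 4057, 3068 and 2979.5 normalized counts in control, 2188, 2811, 2523, 2125 and 2662 in no contact and 1315, 1364, 1657, 1595 and 1733 in contact. The 3 groups did not overlap, and no contact lay between the others. The gene fell by 0.56 in no contact (limma adjusted p = 0.00413) and by 1.24 in contact (limma adjusted p = 3.33e-08), and contact was lower than no contact by a log2 difference of -0.68 (limma adjusted p = 0.000401). Inside each numbering run the contact difference was -1.66, -1.54 and -0.86.

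CDKN1A, the cyclin-dependent kinase inhibitor through which TGF-beta can arrest growth, followed the same order. Its values were 6548, 6779, 6435, 6974 and 7059 in control, 5448, 5576, 4796, 5160.2 and 6060.1 in no contact and 3708, 4250.3, 4019, 4660.3 and 4816 in contact. The control libraries were above all others, and contact library 108 was above no contact library 90. No contact differed from control by -0.33 on the log2 scale (limma adjusted p = 0.0258), a call that was lost in 6 of 15 fits without 1 library, with adjusted p up to 0.0811. Those fits left out control BEEC.83, BEEC.103 or BEEC.104 or no contact 30, 90 or 109. Contact differed from no contact by -0.34 (limma adjusted p = 0.0103) and from control by -0.66.

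JUNB, an immediate-early transcription factor gene that SMAD3 can induce, was called lower in contact against each of the other groups. It had 4717, 4073, 3835, 5037 and 4378 in control, 4548, 4649.9, 5229.7, 3658 and 4249 in no contact and 2727, 3616, 2574, 3451 and 3399 in contact. All contact libraries were below all others. The log2 difference of contact was -0.49 from control (limma adjusted p = 0.00335) and -0.51 from no contact (limma adjusted p = 0.00528), whereas no contact differed from control by 0.02 (-0.20 to 0.24).

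Other calls among target genes were smaller. MYC, a growth gene that TGF-beta represses in epithelial cells, was the one that rose, from 3568 ± 401 to 4185 ± 186 normalized counts in contact, by 0.24 (limma adjusted p = 0.0409). In no contact MYC had a similar mean, 4139 ± 277. The limma adjusted p was 0.297 for no contact against control and 0.924 for contact against no contact. SNAI1, a transcription factor of epithelial-mesenchymal transition, fell from 303 ± 41.4 to 230.1 ± 32.7, by 0.40 (limma adjusted p = 0.016). A further 4 genes were named after their values were seen. The fibronectin receptor subunit gene ITGA5 fell by 0.37, the anchoring fibril collagen gene COL7A1 by 0.38, the metalloproteinase gene ADAM12 by 0.48 and the smooth muscle actin-binding gene TAGLN by 0.42, with limma adjusted p of 0.0114, 0.0116, 0.0217 and 0.0451. With the numbering run as a block the limma adjusted p of ADAM12 was 0.06. Within libraries BEEC.103 to 110 the ITGA5 difference was -0.04 and the TAGLN difference -0.18. The call of MYC was lost in 8 of 15 fits without 1 library, that of TAGLN in 10, and those of SNAI1 and ADAM12 in 3 each, with adjusted p up to 0.134. For MYC these were control BEEC.24, BEEC.83 or BEEC.84 or any contact library, and for TAGLN the same and no contact 30 or 110. For SNAI1 they were control BEEC.24 or BEEC.84 or contact 97, and for ADAM12 control BEEC.83 or BEEC.84 or contact 87.

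Markers of muscle were examined beside TAGLN. The summed endothelium and muscle markers ranged from 2974 to 5409 normalized counts in control, 2461 to 4435 in no contact and 2759 to 3288 in contact. Of the 8 genes in this list, 4 had a median of 10 or more. For contact against control the exact permutation p was 0.0635 before adjustment and 0.5 after it. The adjusted value cannot decide whether these markers shifted, since 5 libraries per group could hardly pass over 21 tests. The sum is mostly ACTA2, smooth muscle actin, itself on the target list, with means of 4083, 3182 and 2759. The other muscle genes of the list were low, MYH11 at 1.63 to 11.6 normalized counts and ACTG2 at 0 to 5.48. The endothelial genes CDH5 and KDR were at 0 in 12 and 11 of 15 libraries. The part of such cells in the TAGLN result was not tested.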

How the data were processed

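The table the authors deposited holds 1 signal per gene and library, a read count divided by a size factor of that library; within 0.01 of a read, 100% of the values were whole multiples of the library's smallest value above 0, which gave back the reads. It also carries the authors' log2 fold changes, a Wald score, p-values and FDRs per comparison. HISAT2 2.1.0, featureCounts 1.6.2 and DESeq2 1.18.1 are listed, without their roles, per the submitters' processing notes. Build, annotation and strandedness of the counting were not given in the sources used here, so reads of overlapping genes are uncertain.

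Differences were tested with limma 3.58.1 in R 4.3.3 (trend, robust) on log2(normalized count + 1), over all 15 libraries with 1 coefficient per group and no block. This scale understates changes of genes with low values. A gene entered with 10 or more normalized counts in 5 or more libraries, which kept 12559 of 19994. Adjusted p is Benjamini-Hochberg over these genes within a comparison, with a threshold of 0.05. Single values per library were compared by exact two-sided permutation tests. Alternatives were pseudocounts of 0.5 and 5, no filter and a filter of 50, TMM scaling, edgeR 4.0.16 and DESeq2 1.42.0 and limma-voom on the recovered reads, the run of library numbers (24 to 30, 83 to 90, 97, BEEC.103 to 110) as a block, a fit of the 2 groups compared, library weights, and fits without 1 library or without contact 97 and 108. The scripts were tested on simulated data.

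The 9 genes and the further lists were chosen with earlier results of these data known. The named genes are the 9, and from each other list up to 4 with the smallest p per comparison; genes most like a called member were to be named, but no member was called. Table symbols CYR61 and CTGF stand for CCN1 and CCN2, and BMP8A and TGFBR3L were not matched. Some genes of the lists are not reported here. Levels are not compared between genes, since no transcript lengths were used.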

Additional observations from a re-analysis of the deposited data

Results flagged for a closer look

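In groups of 5 libraries, a library was singled out where its gap to the nearest of the others exceeded 0.71 of the group's range. This was the case in 9 of 126 groups examined, and chance alone gives about 1 in 20. Among the 9 genes, SMAD7 in control library BEEC.84 was at 223.18 normalized counts, with the other control libraries at 275.23 to 280.28. THBS1 in no contact library 90 was at 12626, with the others at 15168 to 15874. INHBA in control library BEEC.103 was at 117.43, with the others at 140.03 to 147.39. Among the ligands of the wider family, BMP7 in contact library 97 was at 1246.7, with the others at 1478 to 1561.3, and BMP6 in control library BEEC.24 was at 376.2, with the others at 288.2 to 305.14. Among the latency and activation genes, MMP2 in control library BEEC.24 was at 14148 against 11159 to 11748, PLAT in contact library 28 at 2333.9 against 1952 to 2040.9, and the integrin gene ITGAV in contact library 87 at 2202.6 against 2847.5 to 3014.4. The summed leukocyte markers in contact library 87 were at 546.53, with the others at 158.02 to 181.47.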

How the results depend on the processing

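No paired analysis was made, because the groups share no library numbers and the labels do not say which replicate experiment a library belongs to. The run of numbers served as a block instead. Of 729 tests of the 9 genes under the alternatives, 1 was a call: SMAD3 lower in contact than control in the fit of those groups alone (1 of 9 called lower). Signs changed in 45, with no call before or after, from log2 differences of at most 0.14 as reported to at most 0.10. All genes called lower in contact than control numbered 420 without contact 97 and 108, and 472 to 981 without 1 library. In no contact than control, genes called lower numbered 33 with DESeq2, 52 with the run block, 22 with library weights and 3 to 19 without 1 library. In contact than no contact they numbered 344 with the block, 111 in the fit of those groups, 84 without contact 97 and 108 (with 305 higher), and 115 to 350 without 1 library. Target genes in contact against control numbered 0 higher without a filter and 5 lower and 0 higher without contact 97 and 108; without 1 library 0 to 1 were higher and 6 to 11 lower, and in no contact 1 to 3 were lower. Latency and activation genes lower in contact than control numbered 1 without contact 97 and 108 and 1 to 5 without 1 library. In contact than no contact they numbered 1 without a filter, with a filter of 50, with edgeR, limma-voom, the block or the fit of those groups, 2 with DESeq2, and 0 to 2 without 1 library. The run block moved the share of calls that were higher in no contact than control from 93% to 82.43%. The cause of these moves was not tested. The median half-width of a 95% interval, before adjustment, was 0.21 on the log2 scale over all genes. Among calls, the largest unadjusted limma p was 0.00647 for contact against control and 0.000783 for no contact against control. It was 0.00278 for contact against no contact. Differences of 0.21, and smaller ones, were therefore mostly not detectable at the adjusted threshold with 5 libraries per group.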

Other observations

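The balance between the ligand isoforms was described per library. The ratio of TGFB2 to TGFB3 normalized counts ranged from 2.33 to 2.80 in control, 1.80 to 2.49 in no contact and 1.92 to 2.29 in contact, so that every contact library was below every control library. This ratio was picked after its values were seen and was not tested. The ratio of TGFB2 to TGFB1 had means of 3.92, 3.74 and 4.20 in control, no contact and contact. The difference of 0.459 between contact and no contact had an exact two-sided permutation p of 0.0397 and a Benjamini-Hochberg adjusted p of 0.5 over 21 tests.

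A further ligand and 2 modulators lay outside the calls. GDF11, a ligand close to myostatin, had 62 ± 9.43 normalized counts in control and 43.8 ± 7.51 in contact without overlap (limma adjusted p = 0.052). DCN, a proteoglycan that binds TGF-beta, had 34349.8 ± 2631 and 40273 ± 3691 (limma adjusted p = 0.0722). PMEPA1, a feedback inhibitor of the pathway, had 174 ± 29.5 in no contact and 212 ± 16.5 in contact (limma adjusted p = 0.129), with log2 differences of 0.32, 0.33 and 0.34 inside the 3 numbering runs that hold both groups.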
